A study of Harpegnathos saltator with 32 samples.

Results

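A set of 100 brain genes of the ant Harpegnathos saltator was chosen because knockdown of the transcription factor Kr-h1 went with higher levels of these genes in gamergates and with lower levels in workers. For each gene, the mean log2(FPKM + 0.5) with Kr-h1 siRNA minus the mean with GFP siRNA was taken in 4 strata, the gamergates and the workers of each of 2 experimental rounds. FPKM is the number of fragments per kilobase of gene, scaled for sequencing depth. The score of a gene was its smallest difference in the chosen direction, and the 100 highest scores were taken from the 9433 genes with at least 1 FPKM in at least 7 libraries, of 14001 genes in the deposited table. The knockdown differences therefore chose these member genes, and they are given below as a description, with no test. The set is named by direction only, and no cell type is implied.

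The 32 libraries were made from polyadenylated RNA of single central brains on day 10, 10 hours after injection of the siRNA into the head. There were 8 gamergates given Kr-h1 siRNA, 9 gamergates given GFP siRNA, 7 workers given Kr-h1 siRNA and 8 workers given GFP siRNA. Gamergates are workers of this species that mate and lay eggs, and GFP siRNA, written GRP in the protocol text, is the control that targets no ant gene. Round 2 held 4, 4, 4 and 5 of these libraries and round 3 held 4, 5, 3 and 3, in the order of groups just given. Round 2 gamergates alone were sequenced on run 200508 and all other libraries on run 200626, so that caste and run cannot be told apart within round 2. The RNA is a mixture over all cells of a brain, in which fewer cells of a type and less RNA per cell cannot be told apart.

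Kr-h1, a zinc finger protein, is induced by juvenile hormone and is known in insects for holding back metamorphosis. In social insects, juvenile hormone and ecdysone take part in the division between reproductive and foraging adults, and Kr-h1 has been studied as a factor that keeps caste-specific genes in check in the brain. Many of the named genes below serve housekeeping functions: the mitochondrial ribosome translates the few proteins encoded by mitochondrial DNA, the proteasome degrades ubiquitin-tagged proteins, and the secretory pathway carries proteins and lipids from the endoplasmic reticulum to the Golgi.

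Whole reads recovered from the FPKM steps came to 6.61 M in the shallowest and 19.6 M in the deepest library (median 11.03 M). The median read number of a member gene across libraries was between 6 and 16123, with a median of 134 over the members, and 4 members lay under 20 reads. Kr-h1 itself (LOC112589664) ranged over 0.114 to 1.01 FPKM with a median of 0.386 in gamergates given Kr-h1 siRNA, against 0.480 to 7.57 FPKM with a median of 0.809 in gamergates given GFP siRNA. Workers given Kr-h1 siRNA had 0.297 to 0.840 FPKM with a median of 0.424, against 0.369 to 2.54 FPKM with a median of 0.672 in workers given GFP siRNA. The difference on the log2(FPKM + 0.5) scale was -0.97 in gamergates and -0.49 in workers, with exact permutation p = 0.00765 and 0.0314 over all brains of a caste, whatever their round and run (two-sided; n = 8 against 9 and 7 against 8; adjusted over both castes 0.0153 and 0.0314), and 7 of 8 and 6 of 7 knockdown brains lay under the median of their controls. Without GFP replicate 3, 4 or 5 or Kr-h1 replicate 1, 3 or 5, each left out alone, the exact p of Kr-h1 in workers was between 0.0526 and 0.0593. With siRNA labels exchanged only within a round, which keeps the runs apart too, and with the rounds weighted by their numbers of brains, the difference was -1.02 in gamergates and -0.48 in workers, with exact permutation p = 0.00159 and 0.0417 (adjusted over both castes 0.00317 and 0.0417). Within rounds, the Kr-h1 difference was -1.79 and -0.32 in gamergates of rounds 2 and 3, and -0.60 and -0.30 in workers of rounds 2 and 3. The exact permutation p was 0.0571, 0.0476, 0.111 and 0.2 in that order, each above 0.05 once adjusted over the 4 strata (0.114 to 0.2), and the smallest p that 3 brains against 3 can give is 0.1. Synaptic genes, which mark neurons, summed to 1328 to 2363 FPKM over the libraries. Gamergate Kr-h1 replicate 1, gamergate GFP replicate 1, worker Kr-h1 replicate 2 and worker GFP replicate 4 stood apart, with the lowest array weights in limma.

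In gamergates given Kr-h1 siRNA the median difference of the 100 members from GFP siRNA was 0.43 in round 2 and 0.28 in round 3, on the log2 scale. In workers it was -0.39 in round 2 and -0.25 in round 3. Over all 9433 genes the same medians were 0.00, 0.02, 0.00 and -0.02. The stratum with the smallest difference, which set the score, was gamergate round 3 for 28 members, gamergate round 2 for 14, worker round 3 for 46 and worker round 2 for 12. Scores ran from 0.57 for LOC112589397 to 0.19 for LOC105184530 at rank 100, with LOC109503685 and mRpL20 just above it at 0.19. The 3 genes just outside, LOC105191282, LOC105190147 and boca, scored 0.19, 0.18 and 0.18. The limit therefore falls in a continuous run of values.

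The direction used for the choice was itself common. Of all 9433 genes, 1479 (15.7%) were higher in both gamergate strata and lower in both worker strata, the most frequent of the 16 possible sign patterns. The mirror pattern, lower in both gamergate strata and higher in both worker strata, held 1225 genes (13.0%). The members are the 100 with the largest minimum difference among those 1479.

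**Figure D1:**
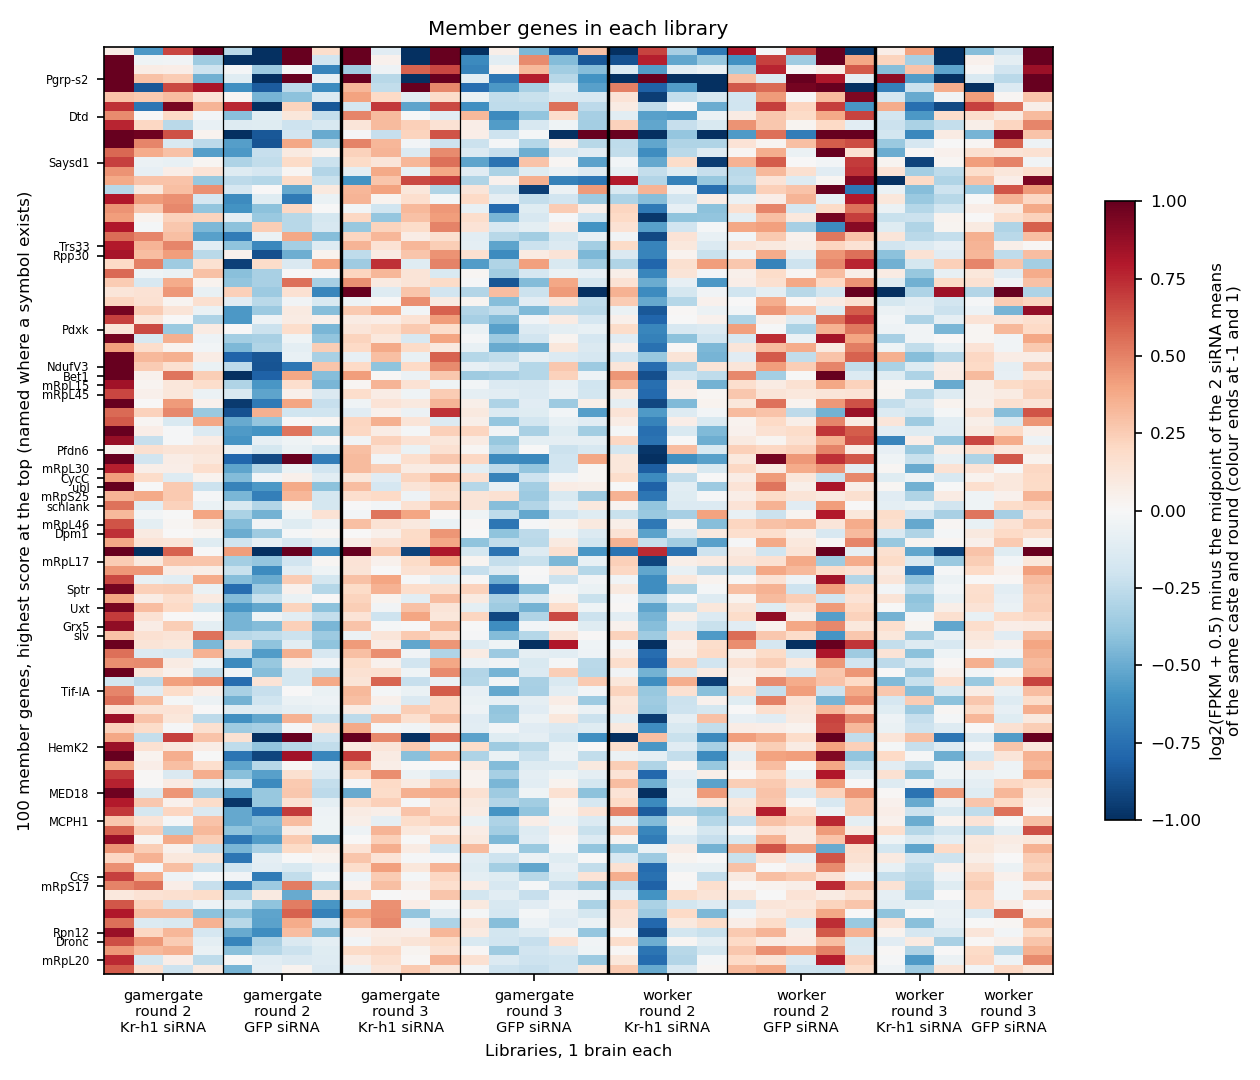
Each row is 1 of the 100 member genes, highest score at the top, and each column is 1 library. Colour shows log2(FPKM + 0.5) minus the midpoint of the 2 siRNA means of the same caste and round, with colours ending at -1 and 1. Kr-h1 siRNA columns are mostly red in gamergates and mostly blue in workers, with gamergate Kr-h1 replicate 1 (the leftmost column) and worker Kr-h1 replicate 2 the most uniform.

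The libraries that stood apart carried part of these differences. Without gamergate Kr-h1 replicate 1, the members' median in round 2 gamergates was 0.30 in place of 0.43. Without worker Kr-h1 replicate 2, the members' median in round 2 workers was -0.23 in place of -0.39. With all 4 low-weight libraries left out, the medians were 0.23 in round 2 gamergates and -0.21 in round 2 workers. The chosen direction then remained in every stratum for 88 members and was held by 12.9% of all genes, a description of the values that the choice used. Both round 3 medians are the same with and without these libraries, all of which belong to round 2.

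Of the 10 highest scores, 8 belonged to genes that the reference lists by number only, and their mean levels ran from 1.23 FPKM for LOC105186860 to 11.1 FPKM for LOC105183781. LOC112589397, at rank 1, codes for a protein. LOC112589397 had 5.58, 3.40, 8.74 and 11.1 FPKM in round 2 gamergates given Kr-h1 siRNA, against 4.32, 0.380, 18.02 and 6.06 FPKM in those given GFP siRNA. LOC112589397 was at 11.6, 2.87, 1.07 and 8.03 FPKM in round 3 gamergates given Kr-h1 siRNA, against 1.20, 3.30, 2.17, 1.53 and 3.98 FPKM in those given GFP siRNA. The gamergate groups overlapped in both rounds, and in round 2 the highest brain was a control. LOC112589397 had 1.42, 6.24, 2.84 and 2.08 FPKM in round 2 workers given Kr-h1 siRNA, against 6.86, 3.68, 6.21, 10.3 and 1.66 FPKM in those given GFP siRNA. LOC112589397 was at 5.85, 7.54 and 1.79 FPKM in round 3 workers given Kr-h1 siRNA, against 4.02, 4.82 and 17.2 FPKM in those given GFP siRNA. The worker groups overlapped as well, with the highest value in a round 3 control. Its differences were 0.57 and 0.81 in gamergates of rounds 2 and 3, and -0.75 and -0.62 in workers of rounds 2 and 3, and the fit over both rounds gave 0.70 ± 0.47 in gamergates and -0.70 ± 0.50 in workers (log2, standard error). Its reads ran from 5 to 225 per library.

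LOC105185494 is a coding gene at rank 2. LOC105185494 had 18.8, 5.22, 5.24 and 4.11 FPKM in round 2 gamergates given Kr-h1 siRNA, against 2.45, 0.757, 25.5 and 4.66 FPKM in those given GFP siRNA. LOC105185494 was at 13.2, 5.35, 2.06 and 11.6 FPKM in round 3 gamergates given Kr-h1 siRNA, against 3.15, 4.79, 7.39, 3.72 and 2.66 FPKM in those given GFP siRNA. LOC105185494 had 1.82, 6.73, 2.46 and 2.75 FPKM in round 2 workers given Kr-h1 siRNA, against 2.28, 6.31, 2.81, 8.74 and 5.04 FPKM in those given GFP siRNA. Gamergate GFP replicate 3 and worker GFP replicate 8 were the highest of their groups for both LOC105185494 and LOC112589397, and gamergate GFP replicate 2 was the lowest for both. The order of brains was not the same throughout: among round 2 gamergates given Kr-h1 siRNA, replicate 4 was the highest for LOC112589397 and the lowest for LOC105185494. The fitted differences of LOC105185494 were 0.63 ± 0.43 in gamergates and -0.62 ± 0.46 in workers.

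Pgrp-s2 (LOC105185773), at rank 4, encodes a short peptidoglycan recognition protein, a family that senses bacterial cell walls in insect immunity. Pgrp-s2 had 14.1, 8.18, 7.97 and 4.58 FPKM in round 2 gamergates given Kr-h1 siRNA, against 6.04, 0.696, 22.1 and 6.20 FPKM in those given GFP siRNA. Pgrp-s2 was at 24.6, 5.13, 1.30 and 13.6 FPKM in round 3 gamergates given Kr-h1 siRNA, against 5.82, 3.62, 11.3, 5.12 and 3.99 FPKM in those given GFP siRNA. The siRNA groups overlapped in both rounds, and gamergates with Kr-h1 siRNA held both the highest and the lowest brain of round 3. Pgrp-s2 had 2.50, 24.9, 2.60 and 2.64 FPKM in round 2 workers given Kr-h1 siRNA, against 7.81, 5.67, 13.02, 11.4 and 5.86 FPKM in those given GFP siRNA. Pgrp-s2 was at 13.5, 4.63 and 2.65 FPKM in round 3 workers given Kr-h1 siRNA, against 6.30, 5.76 and 18.6 FPKM in those given GFP siRNA. In round 2 workers 3 of the 4 knockdown brains lay below every control, and replicate 2 lay above all of them. Its fitted differences were 0.46 ± 0.51 in gamergates and -0.70 ± 0.54 in workers, so that the gamergate difference was smaller than its standard error.

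Other members among the 10 highest scores differed in how even they were. LOC109503590, a coding gene, was at 3.05 to 6.67 FPKM in round 3 gamergates given Kr-h1 siRNA, against 2.34 to 5.15 FPKM in those given GFP siRNA. It was at 2.58 to 3.83 FPKM in round 2 workers given Kr-h1 siRNA, against 3.07 to 7.19 FPKM in those given GFP siRNA, and the groups overlapped. LOC105186609, a coding gene, was at 2.24 to 2.59 FPKM in round 2 gamergates given Kr-h1 siRNA, against 1.30 to 2.03 FPKM in those given GFP siRNA, and the groups did not overlap. It was at 3.37 to 4.86 FPKM in round 3 workers given Kr-h1 siRNA, against 5.06 to 6.84 FPKM in those given GFP siRNA, again with no overlap, while the groups overlapped in the other strata, and its fitted differences were 0.41 ± 0.13 in gamergates and -0.55 ± 0.14 in workers. LOC105186860, also coding, was uneven, at 0.0373 to 2.76 FPKM over both rounds in gamergates given Kr-h1 siRNA, against 0.0450 to 0.755 FPKM in gamergates given GFP siRNA. LOC105186860 was at 0.287 to 1.91 FPKM in workers given Kr-h1 siRNA, against 0.295 to 5.51 FPKM in workers given GFP siRNA, so the groups overlapped in both castes. Its fitted differences were 1.04 ± 0.35 in gamergates and -0.74 ± 0.38 in workers, on 1 to 243 reads per library. LOC105183781 had 0.48 ± 0.28 in gamergates and -0.54 ± 0.29 in workers on 452 to 2847 reads, more than LOC109503590, LOC105186609 or LOC105186860 had in any library.

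Dtd (LOC112588031), at rank 8, encodes D-aminoacyl-tRNA deacylase, which clears D-amino acids wrongly loaded on transfer RNA. Dtd had 0.587, 0.287, 0.399 and 0.268 FPKM in round 2 gamergates given Kr-h1 siRNA, against 0.0861, 0.231, 0.350 and 0.164 FPKM in those given GFP siRNA. Dtd was at 6.96, 6.12, 4.79 and 4.40 FPKM in round 3 gamergates given Kr-h1 siRNA, against 6.14, 2.92, 3.54, 5.49 and 3.72 FPKM in those given GFP siRNA. The gamergate groups overlapped in both rounds, and the level in round 2 gamergates was far below that of every other brain. Dtd had 4.65, 3.30, 3.27 and 4.82 FPKM in round 2 workers given Kr-h1 siRNA, against 5.36, 6.17, 5.82, 6.69 and 8.38 FPKM in those given GFP siRNA. Dtd was at 4.35, 3.19 and 5.73 FPKM in round 3 workers given Kr-h1 siRNA, against 5.74, 5.35 and 6.38 FPKM in those given GFP siRNA. In round 2 workers every knockdown brain lay below every control, and in round 3 workers the groups overlapped. The fitted differences of Dtd were 0.33 ± 0.13 in gamergates and -0.54 ± 0.14 in workers.

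**Figure D2:**
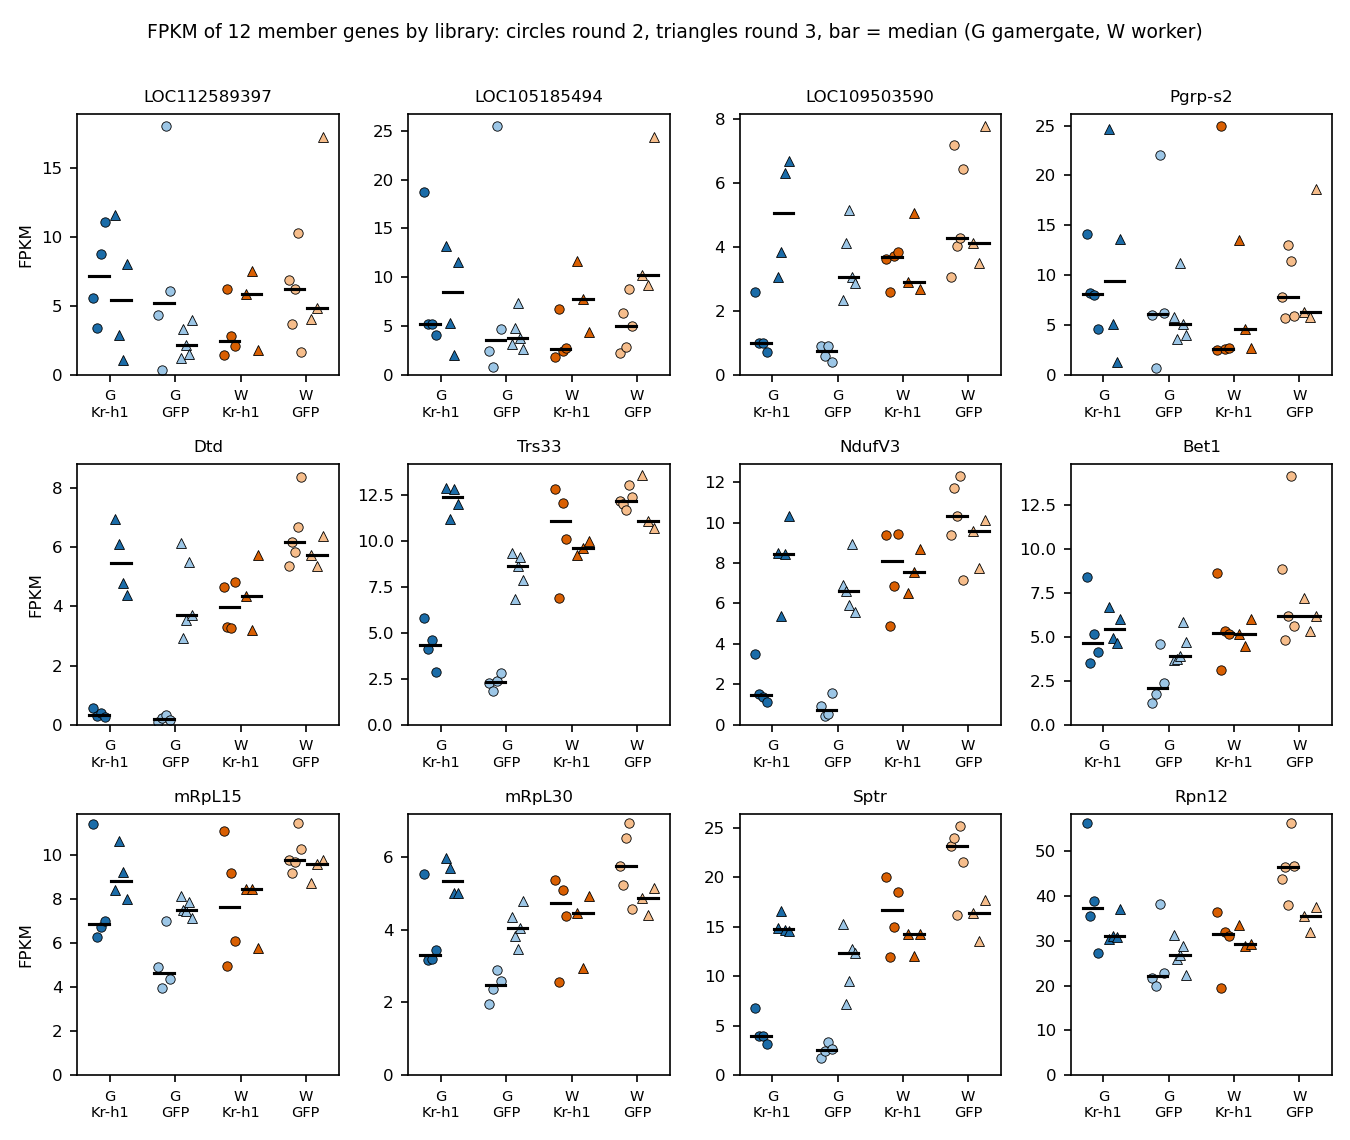
FPKM of 12 member genes, with 1 point per library, circles for round 2, triangles for round 3 and a bar at each round's median. G is gamergate and W is worker, each with Kr-h1 siRNA left of GFP siRNA. Dtd, Trs33, NdufV3 and Sptr lie lower in round 2 gamergates than in any other stratum, and the differences between siRNAs are smaller than that step.

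Among members with a role in mitochondria, 8 encode proteins of the mitochondrial ribosome: mRpL15, mRpL17, mRpL20, mRpL30, mRpL45 and mRpL46 of the large subunit, and mRpS17 and mRpS25 of the small subunit. mRpL45 had 4.10, 2.51, 2.65 and 2.28 FPKM in round 2 gamergates given Kr-h1 siRNA, against 2.11, 1.51, 2.51 and 2.13 FPKM in those given GFP siRNA. mRpL45 was at 12.02, 11.1, 10.3 and 12.7 FPKM in round 3 gamergates given Kr-h1 siRNA, against 9.87, 9.81, 9.54, 10.1 and 9.23 FPKM in those given GFP siRNA. The groups overlapped in round 2 gamergates, and in round 3 every knockdown brain lay above every control. mRpL45 had 12.5, 6.63, 12.2 and 11.9 FPKM in round 2 workers given Kr-h1 siRNA, against 14.2, 12.9, 12.7, 12.8 and 12.96 FPKM in those given GFP siRNA. mRpL45 was at 11.1, 8.93 and 9.92 FPKM in round 3 workers given Kr-h1 siRNA, against 11.3, 11.5 and 12.9 FPKM in those given GFP siRNA. Every knockdown worker lay below every control worker of its round, by the widest margin in replicate 2. The fitted differences of mRpL45 were 0.30 ± 0.10 in gamergates and -0.28 ± 0.11 in workers.

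mRpL30 separated in gamergates, where mRpL45 did so in round 3 alone. mRpL30 had 5.53, 3.17, 3.18 and 3.45 FPKM in round 2 gamergates given Kr-h1 siRNA, against 1.94, 2.37, 2.88 and 2.58 FPKM in those given GFP siRNA. mRpL30 was at 5.98, 5.69, 5.01 and 5.02 FPKM in round 3 gamergates given Kr-h1 siRNA, against 4.36, 3.84, 3.48, 4.06 and 4.78 FPKM in those given GFP siRNA. No gamergate groups overlapped within a round, while the worker groups overlapped in both. mRpL17 had the same arrangement, with fitted differences of 0.42 ± 0.12 in gamergates and -0.25 ± 0.13 in workers. mRpL15 had 0.40 ± 0.13 in gamergates and -0.37 ± 0.14 in workers and mRpL46 had 0.28 ± 0.13 in gamergates and -0.41 ± 0.14 in workers. mRpL20, at rank 99, had 0.25 ± 0.13 in gamergates and -0.46 ± 0.14 in workers. The small subunit members were close to these, at 0.36 ± 0.12 in gamergates and -0.24 ± 0.13 in workers for mRpS25 and 0.35 ± 0.15 in gamergates and -0.35 ± 0.16 in workers for mRpS17.

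Other mitochondrial and redox members were NdufV3, a subunit of respiratory complex I, Grx5, a mitochondrial glutaredoxin of iron-sulfur cluster assembly, and Ccs, the copper chaperone of superoxide dismutase 1. NdufV3 was at 1.13 to 3.50 FPKM in round 2 gamergates given Kr-h1 siRNA, against 0.440 to 1.56 FPKM in those given GFP siRNA. It was at 5.40 to 10.3 FPKM in round 3 gamergates given Kr-h1 siRNA, against 5.58 to 8.92 FPKM in those given GFP siRNA. The fitted differences of NdufV3 were 0.49 ± 0.18 in gamergates and -0.35 ± 0.19 in workers, and the groups overlapped in every stratum. Grx5 had 0.42 ± 0.13 in gamergates and -0.30 ± 0.14 in workers, with overlap in every stratum too. Ccs had 0.34 ± 0.12 in gamergates and -0.33 ± 0.13 in workers, and in round 3 workers its knockdown brains, at 6.40 to 7.56 FPKM, lay below its controls, at 8.11 to 9.76 FPKM.

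Members with a role in protein quality and turnover were Rpn12, Pfdn6 and Uxt, and ubl is given with them for its ubiquitin-like name alone. Rpn12 is a lid subunit of the proteasome regulatory particle. Rpn12 had 56.4, 35.6, 38.8 and 27.3 FPKM in round 2 gamergates given Kr-h1 siRNA, against 21.6, 19.8, 38.2 and 22.7 FPKM in those given GFP siRNA. Rpn12 was at 30.3, 31.02, 30.9 and 37.2 FPKM in round 3 gamergates given Kr-h1 siRNA, against 31.3, 25.9, 26.8, 28.7 and 22.4 FPKM in those given GFP siRNA. Rpn12 had 36.4, 19.5, 32.1 and 31.2 FPKM in round 2 workers given Kr-h1 siRNA, against 43.9, 46.4, 38.1, 56.2 and 46.7 FPKM in those given GFP siRNA. In round 2 workers every knockdown brain was below every control, and in the other strata the groups overlapped. The fitted differences of Rpn12 were 0.43 ± 0.14 in gamergates and -0.47 ± 0.15 in workers. Pfdn6, a prefoldin subunit that hands nascent actin and tubulin to the chaperonin, had 0.25 ± 0.11 in gamergates and -0.40 ± 0.11 in workers. Uxt, a prefoldin-like protein, had 0.47 ± 0.14 in gamergates and -0.27 ± 0.14 in workers, and ubl, a ubiquitin-like protein, had 0.42 ± 0.17 in gamergates and -0.51 ± 0.18 in workers.

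Members that act on RNA or on transcription were Rpp30, Tif-IA, HemK2, MED18 and CycC. Rpp30 is a shared subunit of RNase P and RNase MRP, which process transfer and ribosomal RNA precursors, and was at 0.774 to 2.22 FPKM in round 2 gamergates given Kr-h1 siRNA, against 0.332 to 1.08 FPKM in those given GFP siRNA. Its fitted differences were 0.45 ± 0.16 in gamergates and -0.40 ± 0.18 in workers. Tif-IA, the initiation factor of RNA polymerase I, had 0.37 ± 0.13 in gamergates and -0.21 ± 0.13 in workers. HemK2, a methyltransferase of the translation release factor, had 0.38 ± 0.11 in gamergates and -0.35 ± 0.11 in workers, with no overlap of the groups in round 2 gamergates and in round 3 workers. MED18 and CycC belong to the Mediator complex that bridges transcription factors and RNA polymerase II, and had 0.33 ± 0.19 in gamergates and -0.24 ± 0.21 in workers for MED18 and 0.27 ± 0.12 in gamergates and -0.30 ± 0.13 in workers for CycC.

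Members of the secretory pathway and of lipid and glycan synthesis were Trs33, Bet1, Dpm1, schlank and slv. Trs33 (LOC105188572) is a subunit of the TRAPP tethering complexes. Trs33 had 5.81, 4.10, 4.62 and 2.88 FPKM in round 2 gamergates given Kr-h1 siRNA, against 2.25, 1.83, 2.37 and 2.83 FPKM in those given GFP siRNA. Trs33 was at 12.8, 11.2, 12.8 and 12.00 FPKM in round 3 gamergates given Kr-h1 siRNA, against 9.35, 6.82, 8.62, 9.11 and 7.84 FPKM in those given GFP siRNA. Every knockdown gamergate lay above every control gamergate of its round. Trs33 had 12.8, 6.88, 12.1 and 10.1 FPKM in round 2 workers given Kr-h1 siRNA, against 12.2, 11.99, 11.7, 13.01 and 12.4 FPKM in those given GFP siRNA. Trs33 was at 9.21, 9.59 and 9.98 FPKM in round 3 workers given Kr-h1 siRNA, against 13.6, 11.1 and 10.7 FPKM in those given GFP siRNA. In round 2 workers the groups overlapped, with replicate 2 far below the rest, and in round 3 workers they did not. The fitted differences of Trs33 were 0.64 ± 0.11 in gamergates and -0.26 ± 0.11 in workers.

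Bet1, a SNARE of transport between endoplasmic reticulum and Golgi, was at 3.54 to 8.43 FPKM in round 2 gamergates given Kr-h1 siRNA, against 1.24 to 4.63 FPKM in those given GFP siRNA. Its fitted differences were 0.65 ± 0.21 in gamergates and -0.36 ± 0.22 in workers, and the groups overlapped in every stratum. Dpm1, the dolichol-phosphate mannose synthase that feeds protein glycosylation, had 0.38 ± 0.11 in gamergates and -0.25 ± 0.11 in workers, without overlap in both round 3 strata. schlank, a ceramide synthase, had 0.26 ± 0.10 in gamergates and -0.28 ± 0.10 in workers. slv, a sugar transporter of the SWEET family, had 0.39 ± 0.13 in gamergates and -0.25 ± 0.14 in workers.

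Sptr (LOC105187203) encodes sepiapterin reductase, which makes tetrahydrobiopterin, the cofactor of tyrosine and tryptophan hydroxylases and so of dopamine and serotonin synthesis. Sptr had 6.79, 3.94, 3.95 and 3.09 FPKM in round 2 gamergates given Kr-h1 siRNA, against 1.72, 2.42, 3.37 and 2.59 FPKM in those given GFP siRNA. Sptr was at 14.9, 16.6, 14.7 and 14.5 FPKM in round 3 gamergates given Kr-h1 siRNA, against 15.3, 7.17, 9.46, 12.7 and 12.3 FPKM in those given GFP siRNA. Round 2 gamergates were lower than every other brain whichever siRNA they had received. Sptr had 19.99, 11.9, 14.9 and 18.5 FPKM in round 2 workers given Kr-h1 siRNA, against 23.1, 23.96, 16.1, 25.2 and 21.6 FPKM in those given GFP siRNA. Sptr was at 14.3, 12.1 and 14.3 FPKM in round 3 workers given Kr-h1 siRNA, against 16.4, 13.5 and 17.7 FPKM in those given GFP siRNA. The groups overlapped in every stratum, by 1 control brain in gamergates of each round, and the fitted differences were 0.56 ± 0.14 in gamergates and -0.34 ± 0.15 in workers. Pdxk, the pyridoxal kinase that makes the vitamin B6 cofactor of transmitter-forming decarboxylases, had 0.31 ± 0.13 in gamergates and -0.37 ± 0.14 in workers, and both of its round 3 strata were without overlap.

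The last members with a symbol were Saysd1, Dronc and MCPH1. Saysd1, named for a SAYSvFN domain, had 0.45 ± 0.18 in gamergates and -0.63 ± 0.19 in workers on 9 to 83 reads per library. Dronc, the initiator caspase of the apoptosome, had 0.39 ± 0.11 in gamergates and -0.21 ± 0.12 in workers, and its gamergate groups of round 2 did not overlap. MCPH1, a microcephalin of the DNA damage response, had 0.26 ± 0.12 in gamergates and -0.34 ± 0.13 in workers. In all, 32 members carried a symbol and 68 a number only, a lower share with symbols than the 41.0% of all genes past the filter.

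Of the members, 87 were protein coding, 10 were long noncoding RNAs and 3 were pseudogenes by the annotation. Noncoding RNAs made up 4.59% and pseudogenes 1.18% of all genes past the filter. The best scored noncoding RNA was LOC112589087, at 2.08 to 4.56 FPKM in round 2 gamergates given Kr-h1 siRNA, against 0.669 to 1.70 FPKM in those given GFP siRNA. In round 3 gamergates LOC112589087 was at 1.58 to 3.28 FPKM with Kr-h1 siRNA, against 0.3002 to 4.48 FPKM with GFP siRNA, so the groups overlapped and the highest brain was a control. Its gamergate difference was 1.33 in round 2 and 0.30 in round 3 (log2). It was at 0.427 to 6.44 FPKM in round 2 workers given Kr-h1 siRNA, against 1.66 to 14.3 FPKM in those given GFP siRNA, and at 0.939 to 1.88 FPKM in round 3 workers given Kr-h1 siRNA, against 1.14 to 3.78 FPKM in those given GFP siRNA, with overlap in both rounds. It had a median of 6 reads per library, the thinnest member of the set. Among the pseudogenes, reads may be shared with an intact copy, so their levels are uncertain. The coding members LOC112588125, LOC112588251 and LOC112588587 span 2436, 2454 and 2410 bp, with median reads of 216, 215.5 and 216. Levels of LOC112588125 and LOC112588251 were nearly alike in every library, with LOC112588587 and LOC112589448 close to them. LOC112588900 and LOC112589304 also rose and fell together over most libraries, as did LOC105183627 and LOC112588439. Whether such members share reads was not tested, and they may not be separate signals.

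LOC109504436, a pseudogene at rank 9, showed both the siRNA differences and a step between rounds. LOC109504436 had 1.32, 0.739, 0.393 and 0.520 FPKM in round 2 gamergates given Kr-h1 siRNA, against 0.485, 0.487, 0.431 and 0.462 FPKM in those given GFP siRNA. LOC109504436 was at 13.00, 14.9, 14.1 and 13.2 FPKM in round 3 gamergates given Kr-h1 siRNA, against 12.5, 7.93, 10.6, 11.5 and 9.29 FPKM in those given GFP siRNA. In round 3 every knockdown gamergate lay above every control, and no brain of round 2 gamergates was above 1.32 FPKM. LOC109504436 had 15.1, 8.74, 10.8 and 11.4 FPKM in round 2 workers given Kr-h1 siRNA, against 17.6, 15.5, 13.01, 14.7 and 11.9 FPKM in those given GFP siRNA. LOC109504436 was at 10.9, 10.1 and 10.7 FPKM in round 3 workers given Kr-h1 siRNA, against 13.2, 14.8 and 17.9 FPKM in those given GFP siRNA. Knockdown workers of round 3 lay below their controls, and those of round 2 overlapped with them. LOC109504538, another pseudogene, was the most abundant member at a mean of 1509.8 FPKM over the libraries, with fitted differences of 0.30 ± 0.18 in gamergates and -0.39 ± 0.20 in workers. LOC112589756, the third pseudogene, had 0.47 ± 0.25 in gamergates and -0.77 ± 0.27 in workers.

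The members shared a feature that the choice did not use directly: they were short genes. Their span from start to end in RefSeq Hsal_v8.6 had a median of 1.49 kb and ran from 0.323 to 6.61 kb, against a median of 4.33 kb over all genes past the filter. Genes with the mirror pattern had a median of 11.3 kb. Of the members, 14 spanned under 1 kb, 49 spanned 1 to 2 kb, 31 spanned 2 to 4 kb, 6 spanned 4 to 8 kb, and no member was longer. Of genes spanning 1 to 2 kb, 38.8% had the chosen direction in all 4 strata and 2.10% the mirror pattern. Of genes spanning at least 16 kb, 1.88% had the chosen direction and 29.6% the mirror pattern. mRpL45, at 6.61 kb, was the longest member, and LOC112589756, at 0.613 kb, was among the shortest.

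**Figure D3:**
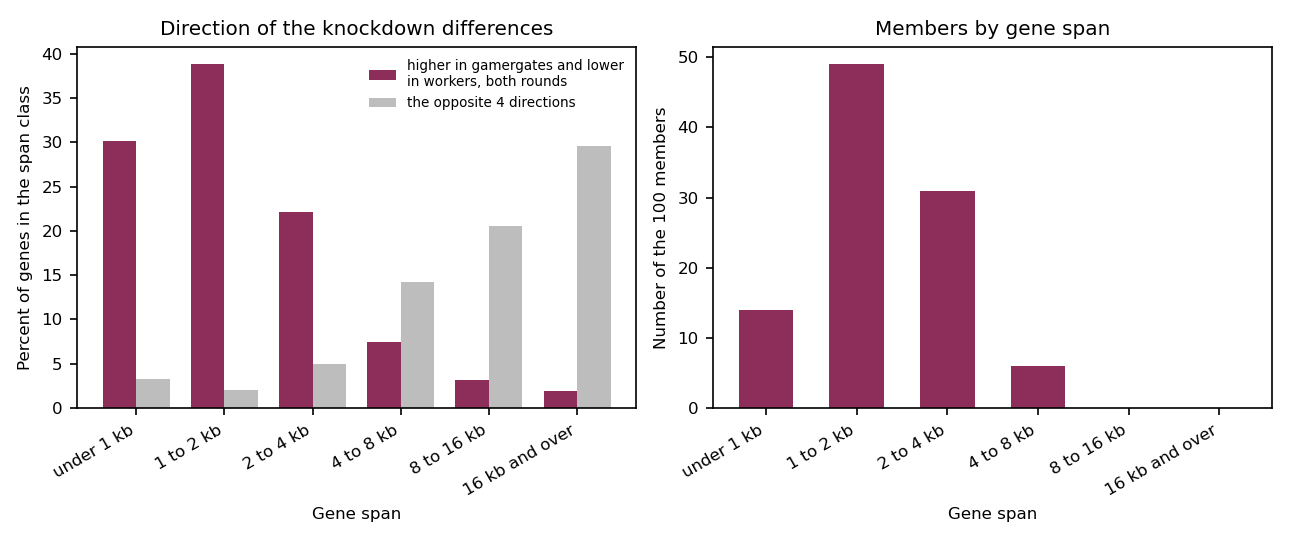
Left, percent of genes in each class of gene span with the chosen direction in all 4 strata (dark) or the mirror pattern (grey), over the 9433 genes past the filter. Right, number of the 100 members in each class. The chosen direction was held by 38.8% of genes at 1 to 2 kb and by 1.88% at 16 kb and over, where the mirror pattern was held by 29.6%.

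Members also had fewer annotated transcripts and a lower level than other genes. A lone annotated transcript was listed for 59 of 100 members, against 47.8% of all genes. The mean FPKM of a member had a median of 4.33, against 6.26 over all genes. The SD within group and batch had a median of 0.30 on the log2 scale for members, against 0.24 over all genes, so the members varied more from brain to brain. Genes with the chosen direction in all 4 strata had a median of 0.24. A choice by large differences between means of few brains favours genes of wide spread. The wider spread of the members can thus follow from the choice. After removal of group and batch means, pairs of members had a median correlation of 0.348 over the 32 libraries, against 0.003 for pairs among 1 in 5 of all genes. With the trend of each library over gene span removed, the same medians were 0.139 and -0.001. These pairs share library and depth, some members have nearly the same levels as another, and the value is a description.

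The members' mean level moved with the slope of each library over gene span. The members are short and count in the slope, so part of this relation follows from how the slope is taken. Other short genes were not set beside them. Relative to the mean of all libraries, the slope is the change in log2 level for a gene 10 times longer. Gamergate GFP replicate 1 had the steepest slope, 0.62, and a members' mean of -1.13. Gamergate GFP replicate 2 had a slope of 0.39 and the lowest members' mean, -1.21. In round 2 gamergates the slope averaged 0.12 ± 0.09 with Kr-h1 siRNA, against 0.36 ± 0.19 with GFP siRNA (SD, n = 4 each). In round 3 gamergates it averaged -0.10 ± 0.04 with Kr-h1 siRNA (SD, n = 4), against 0.02 ± 0.06 with GFP siRNA (SD, n = 5). Workers had the reverse order, at -0.05 ± 0.20 with Kr-h1 siRNA (SD, n = 4) against -0.21 ± 0.04 with GFP siRNA (SD, n = 5) in round 2, and -0.02 ± 0.04 against -0.12 ± 0.05 in round 3 (SD, n = 3 each). The members' differences were therefore also taken with each library's span trend removed.

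**Figure D4:**
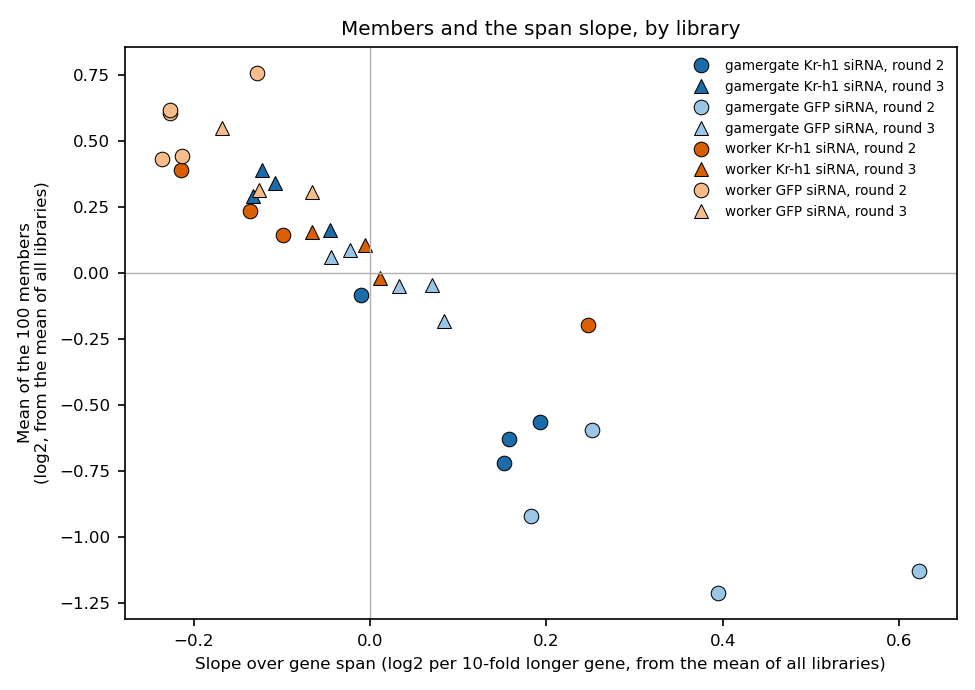
Each point is 1 library, with its slope over gene span on the horizontal axis (log2 per 10-fold longer gene) and the mean of the 100 members on the vertical axis, both relative to the mean of all libraries. Libraries with a steeper slope have a lower members' mean, and the gamergate GFP libraries of round 2 reach slopes of 0.18 to 0.62 and members' means of -0.59 to -1.21.

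With the trend over gene span removed from every library, 76 of the 100 members still had the chosen direction in all 4 strata and 24 did not. Of the members, 48 remained among the 100 highest scores. These counts reread the values that the choice used and are a description. The members' median of the gamergate minus worker knockdown difference was then 0.43, against 0.69 as deposited (log2). LOC109503590 changed little, at 0.48 and 0.40 in gamergates and -0.45 and -0.41 in workers of rounds 2 and 3, and it stayed in the set. mRpL45 and Bet1 stayed too. Dtd had -0.02 in round 2 gamergates after the removal and LOC109504436 had -0.01, so that neither kept the direction in that stratum. Of the 8 mitochondrial ribosomal members, mRpL45 and mRpL30 stayed among the 100 highest scores.

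A measure that the choice did not use is the difference between castes averaged over both siRNAs, gamergate minus worker. Its design correlation with each stratum's knockdown difference was between 0.000 and 0.037. The fit took round and run as batch, and in round 2 this batch term absorbs caste. The difference therefore rests almost wholly on the round 3 libraries. Round 2 adds to the estimate of spread, and its gamergates enter with a small weight through their knockdown difference (design correlation 0.035). At a Benjamini-Hochberg adjusted p under 0.05 in limma, 47 of 9433 genes (0.498%) were called, 29 higher (0.307%) and 18 lower (0.191%) in gamergates. None of the 100 members was called. An unadjusted limma p under 0.05 was found for 6 of 100 members, a smaller share than the 985 of 9433 genes. Those 6 were all lower in gamergates. The share lower was close to that over all genes, where lower and higher were nearly equal in number. Whether the direction of these 6 members sets them apart was not tested. The members' differences ran from -0.99 to 0.40 with a median of -0.06, against -0.01 over all genes, and 68 of 100 were below 0, against 51.6% of all genes. A call that misses this threshold does not show equal levels in the castes.

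The member closest to a call was LOC105188645, a coding gene listed by number, at -0.46 ± 0.14 (log2, standard error; limma adjusted p = 0.133). LOC105188645 had 2.80, 3.33, 3.04 and 3.49 FPKM in round 3 gamergates given Kr-h1 siRNA, against 2.92, 1.92, 2.60, 2.91 and 2.45 FPKM in those given GFP siRNA. LOC105188645 was at 3.70, 3.99 and 3.69 FPKM in round 3 workers given Kr-h1 siRNA, against 3.83, 4.82 and 4.71 FPKM in those given GFP siRNA. All 9 round 3 gamergates lay below all 6 round 3 workers, whichever siRNA they had received. LOC105188645 had 2.53, 1.29, 1.38 and 1.16 FPKM in round 2 gamergates given Kr-h1 siRNA, against 1.10, 0.642, 1.63 and 1.00 FPKM in those given GFP siRNA. LOC105188645 was at 4.88, 2.61, 3.48 and 2.49 FPKM in round 2 workers given Kr-h1 siRNA, against 4.65, 4.71, 4.22, 5.31 and 3.84 FPKM in those given GFP siRNA. Round 2 gamergates lay lower than round 2 workers, on a different sequencing run, with 1 knockdown gamergate inside the range of the knockdown workers.

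The other members with an unadjusted p under 0.05 did not pass the adjustment either. LOC105187028, a noncoding RNA, had -0.99 ± 0.33 (limma adjusted p = 0.194), about 3 times its standard error. LOC112589554, another noncoding RNA, had -0.75 ± 0.29 (limma adjusted p = 0.291) and LOC112588765 had -0.60 ± 0.24 (limma adjusted p = 0.318). Both noncoding RNAs rest on few reads, with 0 to 26 per library (median 7.5) for LOC105187028 and 2 to 45 (median 17) for LOC112589554. LOC109504046 and LOC105181607 had -0.25 ± 0.11 and -0.35 ± 0.16. LOC105185494 had -0.87 ± 0.47 (limma adjusted p = 0.538) and LOC112589397 had -0.74 ± 0.51 (limma adjusted p = 0.693). Dtd had -0.06 ± 0.14, Trs33 had -0.06 ± 0.12, Sptr had -0.16 ± 0.15 and Pgrp-s2 had -0.14 ± 0.55, none of them past the threshold. MED18 had the highest caste difference of the members, 0.40 ± 0.21 (limma adjusted p = 0.53). The mitochondrial ribosomal members lay between -0.17 ± 0.14 for mRpS25 and 0.09 ± 0.13 for mRpL30.

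**Figure D5:**
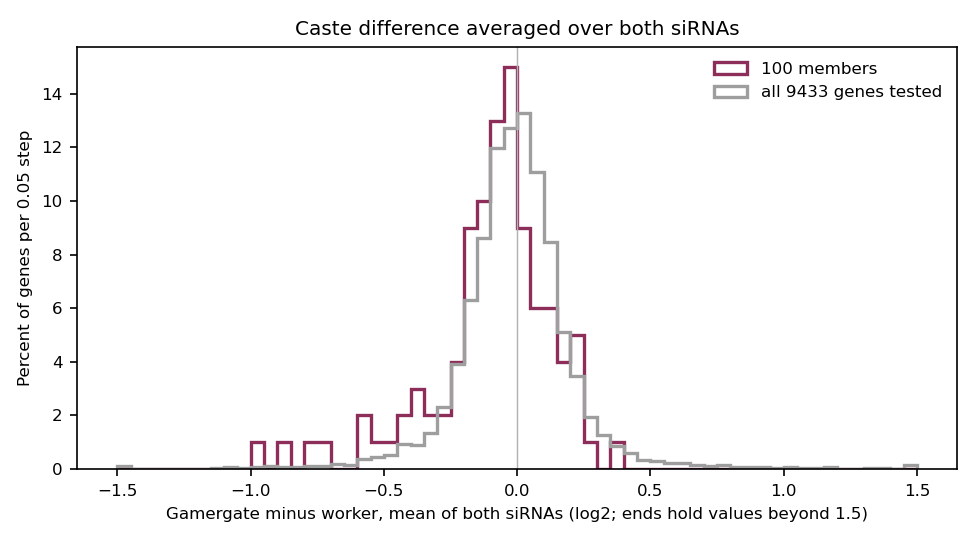
Distribution of the gamergate minus worker difference averaged over both siRNAs (log2, horizontal axis) as percent of genes per 0.05 step, for the 100 members and for all 9433 genes tested. The members' median is -0.06 against -0.01 for all genes, and a few members lie near -1.

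The castes were also compared within each round. Round 3 holds the libraries on which the caste difference above almost wholly rests, so its fit is not an independent result. In round 3, where all libraries were on the same run, 1 member was lower in gamergates, LOC105188645, and no member was higher, against 183 genes lower (1.94%) and 230 genes higher (2.44%), and the members' median was -0.07. In round 2, where gamergates and workers were on different runs, 78 members were lower in gamergates and 2 were higher, LOC105182967 and LOC112588765, against 25.2% of all genes lower and 27.1% higher. The members' median in round 2 was -1.03, against 0.07 over all genes. Caste and run cannot be told apart in that round.

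The step between rounds was also taken within each caste. With both siRNAs averaged, 34 members were more than 1 log2 unit lower in round 2 than in round 3 gamergates, against 7.37% of all genes, and 11 were more than 2 units lower, against 1.20% of all genes. In workers, whose rounds shared a run, 1 member was more than 1 unit lower (0.371% of all genes) and no member was more than 2 units lower. The members' median round difference was -0.79 in gamergates and 0.14 in workers, against 0.05 in gamergates and -0.01 in workers over all genes. The deepest steps in gamergates were those of LOC109504538 at -5.05, LOC109504436 at -3.53, Dtd at -2.76, LOC105182863 at -2.66 and mRpL46 at -2.48. The worker values of the same 5 genes were 0.25, 0.01, 0.01, 0.19 and 0.19.

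LOC109504538 shows the size of that step. LOC109504538 had 80.9, 43.6, 57.4 and 44.7 FPKM in round 2 gamergates given Kr-h1 siRNA, against 34.5, 29.3, 80.5 and 47.6 FPKM in those given GFP siRNA. LOC109504538 was at 1749, 1719, 2012 and 1856 FPKM in round 3 gamergates given Kr-h1 siRNA, against 1755, 1096, 1257, 1693 and 1818 FPKM in those given GFP siRNA. No value of round 2 gamergates came near those of round 3. mRpL46 was at 0.133 to 0.544 FPKM in round 2 gamergates given Kr-h1 siRNA, against 0 to 0.160 FPKM in those given GFP siRNA, and it was listed at 0 in gamergate GFP replicate 1. It was at 3.10 to 4.15 FPKM in round 3 gamergates given Kr-h1 siRNA, against 1.79 to 3.54 FPKM in those given GFP siRNA. The reads of mRpL46 ran from 0 to 150 per library.

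The wider pathways were followed through lists of genes with a symbol. Of 70 mitochondrial ribosomal genes past the filter, 8 were members and 36 (51.4%) had the chosen direction in all 4 strata. The direction was held by 15.7% of all genes, and 100 of all 9433 genes were members. Of genes spanning 1 to 2 kb, 38.8% had the direction and 3.31% were members. Of genes spanning 2 to 4 kb, 22.1% had the direction and 1.20% were members. Of 57 cytosolic ribosomal genes none was a member, yet 41 had the direction, with medians of 0.70 and 0.09 in gamergates and -0.63 and -0.06 in workers of rounds 2 and 3. Of 52 oxidative phosphorylation genes none was a member and 29 had the direction. The proteasome list held 1 member, Rpn12, and 16 of 30 genes with the direction. The secretory list held 2 members, Trs33 and Bet1, and 16 of 56 genes with the direction. Lists with no member had the direction in 5 of 8 mitochondrial import genes, 5 of 9 Sm and LSm genes, 13 of 45 RNA polymerase genes, 20 of 36 translation factors, 5 of 12 redox enzymes and 3 of 11 V-ATPase subunits. None of 31 synaptic genes had it, and their median span was 45.9 kb, against 1.39 kb for the mitochondrial ribosomal genes.

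In the caste average, no gene of the mitochondrial ribosomal, oxidative phosphorylation, proteasome or secretory lists was called in either direction. The median caste difference of the 70 mitochondrial ribosomal genes was -0.01, with 28 above and 42 below 0. That of the 57 cytosolic ribosomal genes was -0.16, with 2 above and 55 below 0, and none was called. That of the 30 proteasome genes was 0.11, with 24 above and 6 below 0. The medians of the 56 secretory genes and of all genes were 0.01 and -0.01.

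Markers of other tissues were read beside the members. Over 11 muscle genes, summed levels were 55.8 to 471.9 FPKM with a median of 66.9 in gamergates given Kr-h1 siRNA, against 69.0 to 119.5 FPKM with a median of 103 in gamergates given GFP siRNA. Workers given Kr-h1 siRNA had 62.5 to 111.7 FPKM with a median of 74.8, against 81.3 to 303.6 FPKM with a median of 115.5 in workers given GFP siRNA. Of the 10 muscle genes past the filter, 8 were higher in round 2 gamergates and none was higher in round 3 gamergates, while 9 and 8 were lower in workers of rounds 2 and 3. No muscle gene had the chosen direction in all 4 strata, and no marker was at 0 in every library of a group. Summed over 12 retinal genes, levels were 108.8 to 686.6 FPKM with a median of 330.0 in gamergates given Kr-h1 siRNA, against 117.2 to 864.7 FPKM with a median of 608 in gamergates given GFP siRNA. Workers given Kr-h1 siRNA had 103.5 to 779.5 FPKM with a median of 684, against 122.8 to 987.3 FPKM with a median of 443 in workers given GFP siRNA. Pooled over rounds, the retinal medians lay in the opposite order to the members in both castes, with ranges that overlapped widely. By round, the 11 retinal genes past the filter had median differences of -0.45 and 0.02 in gamergates of rounds 2 and 3 (log2). In workers these medians were -0.10 and 0.14. The members' direction was thus seen in round 3 gamergates and round 2 workers, and not in the other strata. Of those 11 genes, 2 had the chosen direction in all 4 strata. The 11 glial genes summed to a median of 1039 FPKM in gamergates given Kr-h1 siRNA against 1138 FPKM in those given GFP siRNA, and to 1049 FPKM in workers given Kr-h1 siRNA against 1021 FPKM in those given GFP siRNA. In each round 2 of the 11 glial genes were higher in gamergates given Kr-h1 siRNA than in those given GFP siRNA, with medians of -0.22 in round 2 and -0.21 in round 3 (log2). In workers the glial medians were 0.16 in round 2 and -0.10 in round 3. The 6 fat body genes summed to a median of 221 FPKM in gamergates given Kr-h1 siRNA against 262 FPKM in those given GFP siRNA, and to 178 FPKM in workers given Kr-h1 siRNA against 193 FPKM in those given GFP siRNA. The 5 fat body genes past the filter had median differences of -0.49 and 0.65 in gamergates of rounds 2 and 3 (log2). In workers their medians were 0.25 and -0.32, so both round 3 strata had the members' direction and both round 2 strata did not. The 4 haemocyte genes summed to a median of 6.21 FPKM in gamergates given Kr-h1 siRNA against 7.80 FPKM in those given GFP siRNA, and to 7.09 FPKM in workers given Kr-h1 siRNA against 5.47 FPKM in those given GFP siRNA. No glial, fat body or haemocyte gene had the chosen direction in all 4 strata. The part of such tissues in the members' differences was not tested.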

How the data were processed

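Strand-specific libraries were made from 600 ng of total RNA of single central brains, per the labels' protocols. The authors deposited FPKM values for 14001 genes; featureCounts, STAR, DESeq2 and bcl2fastq appear without versions or roles in the submitters' processing notes. Genome build, annotation, depth scaling and use of strand in counting: not given in the sources used here.

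Of the gene identifiers, 13989 matched RefSeq Hsal_v8.6, used for symbols, biotype and gene span only. Reads were recovered from FPKM steps for 99.8% of 12692 detected genes, within 0.02 reads; 55.1% of nonzero values were even, so a read need not be an independent fragment, and reads were not used in the main test. limma 3.58.1 (R 4.3.3) was fitted to log2(FPKM + 0.5) with 4 groups and a batch term of 3 levels (round and run), with adjustment over 9433 genes. This scale understates changes of low genes. Kr-h1, under the filter, was tested by exact permutation in SciPy 1.17.1, over all brains of a caste and, added after seeing the data, within rounds.

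Replicates were single brains, per the series' design text. The members and the 17 gene lists were chosen with earlier results of these data known. Lists were built from symbols, and 10 symbols that matched by letters only were left out. Named genes were the 10 highest scores, the 10 highest scores among members with a symbol, up to 6 members of each list, the 3 genes on each side of the limit and Kr-h1; further members are named because they carry a symbol or lie at an extreme, after their values were seen. Alternatives covered the pseudocount, filter, scaling, span trend, batch term, replicate block, variance model, recovered reads and each library left out. No sequence is printed.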

Additional observations from a re-analysis of the deposited data

Results flagged for a closer look

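Over 27 named genes, 108 groups of 7 to 9 brains were searched for a brain far from the rest, and 3 were found. Chance flags about 1 in 20, so 3 of 108 is fewer than chance gives. Each group pooled both rounds, and the step between rounds in gamergates widens their range and can hide a far brain. Rpn12, the proteasome subunit, was at 19.55 FPKM in worker Kr-h1 replicate 2, the lowest of its group, with the next brain, replicate 6, at 28.94 FPKM. That library was also among those of low array weight, and its members' mean was the lowest of the workers. Kr-h1 was at 0.8401 FPKM in worker Kr-h1 replicate 4, the highest of its group, with the next brain at 0.4348 FPKM. Kr-h1 was at 2.543 FPKM in worker GFP replicate 4, the highest of its group, with the next brain at 1.018 FPKM. In that library 35.04% of low genes were listed at 0, more than in any other.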

How the results depend on the processing

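Of the 100 members, between 63 and 95 stayed among the 100 highest scores when each library was left out in turn, with 63 without worker GFP replicate 8 and 64 without worker Kr-h1 replicate 6. Removing the span trend left 48, and leaving out the 4 low-weight libraries, chosen after seeing the data, left 44. Requiring a mean of 5 FPKM left 43, which are all the members at that level. Scores do not change under that filter, so its count does not measure how stable the choice is. The median gamergate minus worker knockdown difference was 0.62 to 0.75 with each library left out and 0.43 with the span trend removed, against 0.69. For the caste average, genes called numbered 15 (without worker Kr-h1 replicate 6) to 72 (without gamergate GFP replicate 3 or gamergate Kr-h1 replicate 8) with each library left out, 79 with the span trend removed, 413 in round 3 only, 655 with array weights, 167 without the low-weight libraries and 3953 with no batch term, against 47. The fit of round 3 only reuses the libraries on which the caste difference almost wholly rests, with another estimate of spread. No member was called with any library left out. Members called were 1 with the span trend removed, in round 3 only and without the low-weight libraries (LOC105188645 each time), 3 with array weights and 70 with no batch term. Without the batch term, which leaves the run of round 2 gamergates in the caste difference, the members' median was -0.51, and mRpL17, LOC109503685 and LOC105184530 reversed to -0.34, -0.57 and -0.47; 14 other named genes passed the threshold. With a library left out the members' median was -0.09 to -0.03. The replicate number as a block gave 22 called genes and no called member; brains with the same number had residual correlations of -0.43 to 0.58 (median 0.02, 45 pairs), so the numbers do not pair brains. Kr-h1 in workers ranged over -0.58 to -0.32 with each library left out and lost its call in 6 of 15 fits; in gamergates it ranged over -1.08 to -0.70. Other pseudocounts, filters, scalings, robust variance and voom on recovered reads called no member. Depth limits 4 members, which rest on a median under 20 reads, and others in round 2 gamergates. In gamergate GFP replicate 1, Dtd and LOC105184586 had 1 read, and mRpL46 and LOC105182863 had 0. The round 2 gamergate differences of such members rest on few reads.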
